A study of Danio rerio with 16 samples.

Results

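Zebrafish embryos without maternal and zygotic Pou5f1 were injected with Sox2 mRNA, and their transcripts were compared with those of uninjected embryos of the same genotype. The comparison used 7 of the 16 samples of the study. In the group called MZ_Sox2 (4 samples), MZ mutant embryos with the m793 allele of spg received 50 pg of Sox2 mRNA per embryo. In the group called MZ (3 samples), embryos of that genotype were left uninjected. All embryos of both groups, and of every other group mentioned, were placed in the translation blocker cycloheximide (15 µg/ml) from 1.5 until 4.7 hours post fertilization and then frozen. Each sample was total RNA of 60 to 100 pooled whole embryos, read in 1 dye channel of a 2-colour Agilent array. The controls received no injection, so a control mRNA is not part of the comparison. The design text calls the replicates biological.

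Pou5f1 in zebrafish, now named Pou5f3, is a maternally supplied POU-domain factor that, with SoxB1 proteins such as Sox2, Sox3, Sox19a and Sox19b, binds early zygotic enhancers and opens the zygotic genome. Embryos that lack it from mother and zygote misregulate dorsoventral patterning, endoderm formation and epiboly. With protein synthesis blocked, the only new transcription factor in injected embryos should be the one translated from the mRNA before the block, so transcripts that respond can be read as its close targets.

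The values are log2 of the deposited intensity, so a difference of 1 is a factor of 2. Genes were described where the mean log2 intensity over the 7 samples was 8 or more. This left 4972 bright named genes of 9238 on the array, each read by its brightest probe. Just outside that minimum lay ckap4, gfod2 and gnmt at 7.996, 7.997 and 7.997, and just inside it prpf3, krt5 and phldb2b at 8.001, 8.007 and 8.007. Differences are MZ_Sox2 minus MZ as fitted by limma with dye as a covariate, with their standard error (SE). The dye term was fitted over all 16 samples, so a fitted difference can depart from that between the group means. For foxb1a the means were 9.20 in MZ_Sox2 and 11.96 in MZ, and the fitted difference was -3.62. A pair of groups is said not to overlap where all 4 samples of one lay on the same side of all 3 of the other.

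The libraries carried structure that the injection label did not explain. Across 7681 bright probes, which are not independent replicates, MZ replicates 1 and 2 correlated at 0.963 (Spearman), while MZ replicate 3 correlated with them at 0.839 and 0.857. MZ replicate 3 correlated with the 4 MZ_Sox2 samples at 0.907 to 0.982, and these correlated with each other at 0.828 to 0.938. It also correlated with WT replicates 1 and 2, of uninjected wild type embryos, at 0.930 and 0.928. WT replicate 3 correlated with WT replicates 1 and 2 at 0.799 and 0.795, and with MZ replicates 1 and 2 at 0.919 and 0.922. In the groups used below for reference, MZ_Pou5f1 replicate 3 correlated with WT replicates 1 and 2 at 0.992 and 0.990 and with its own group at 0.929 and 0.925. WT_Sox2 replicate 3 correlated with MZ_Pou5f1 replicates 1 and 2 at 0.980 and 0.982 and with its own group at 0.929 and 0.916. The replicates numbered 3 of these 4 groups thus lay nearer to samples of another label than to their own group. The MZ_Sox2 samples did so too. Replicate 1 correlated at 0.933 with WT replicate 2 and at most at 0.914 with its own group. Replicate 4 correlated at 0.941 with WT_Sox2 replicate 2 and at most at 0.938 with its own group. Replicates 2 and 3 correlated at 0.918 and 0.982 with MZ replicate 3 and at most at 0.914 and 0.938 with their own group. The differences given here are between samples as labelled, and an exchange of labels or channels was not tested. MZ replicates 1 and 2 were Cy5 samples on 1 slide, MZ replicate 3 was a Cy3 sample on another slide, MZ_Sox2 replicate 1 was a Cy5 sample on another again, and MZ_Sox2 replicates 2 to 4 were Cy3 samples together on yet another. With 0 slides holding both groups, slide and injection cannot be told apart. Values given within Cy5 set MZ_Sox2 replicate 1 alone against MZ replicates 1 and 2. Those within Cy3 set MZ_Sox2 replicates 2 to 4 against MZ replicate 3 alone, so dye and that sample cannot be told apart there. The dark control feature read 132.7 in MZ replicate 1 and 12.57 in MZ replicate 2, against 6.854 to 7.877 in the other 5 samples. The spike-in controls showed 2 patterns, and MZ_Sox2 replicate 2 and MZ replicate 1 (n9 over a22 spike ratios of 11.8 and 5.46) differed from the other 5 samples (0.0526 to 0.188). That grouping did not follow the labelled dye, and its part in the results was not tested beyond a fit with the spike pattern in place of dye.

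No single transcript passed the adjusted threshold between injected and uninjected MZ embryos, with 4 against 3 samples. Limma called 0 of 21495 probes (0%) at an adjusted p under 0.05, and the smallest adjusted p was 0.447. Without adjustment 1036 probes (4.82%) had a p under 0.05. Among the bright named genes the smallest limma adjusted p was 0.77, and no bright gene named here had a lower one in this fit. Transcript levels were mostly close, since 4568 of the 4972 bright genes (91.9%) had a fitted difference of less than 1 in size. The median size of the difference was 0.31, against a median SE of 0.37 and median SDs between replicates of 0.45 in MZ_Sox2 and 0.41 in MZ. With 1 library left out the count of calls was 1 without MZ replicate 1, 8 without MZ replicate 2 and 2 without MZ replicate 3. Of these calls only luc7l, whose product belongs to the splicing machinery, was a bright named gene (2.03, SE 0.24, adjusted p = 0.0111, limma without MZ replicate 2), and it was named after its values were seen.

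The larger differences lay mostly on the negative side. A difference of -2 or less was fitted for 70 bright genes (1.41%) and one of 2 or more for 9 (0.181%), although 2599 genes had a positive difference and 2373 a negative one. The 2 groups did not overlap for 201 bright named genes (4.04%), with MZ_Sox2 above for 100 (2.01%) and below for 101 (2.03%). Of the 70 genes at -2 or less, 12 did not overlap, as did 2 of the 9 at 2 or more. The even split depended on the scaling of MZ_Sox2 replicate 4, whose deposited values had another distribution. With that column as deposited the counts were 204 above and 20 below, and with each sample centred on its median they were 169 and 53. Without MZ replicate 3, 911 genes did not overlap in each direction, but leaving out a sample can only keep or raise such a count.

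**Figure D1:**
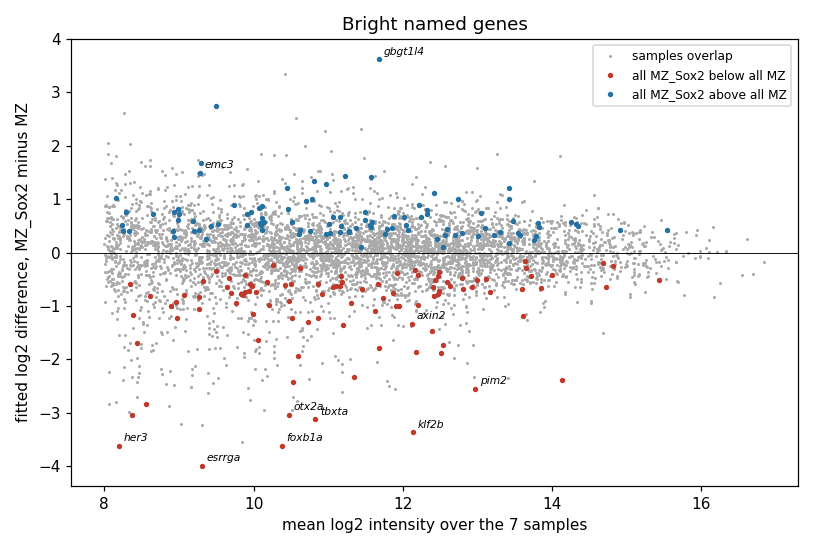
Each point is 1 of the 4972 bright named genes, with its mean log2 intensity over the 7 samples on the horizontal axis and the fitted log2 difference, MZ_Sox2 minus MZ, on the vertical axis; coloured points are the 201 genes whose samples do not overlap. Most points lie between -1 and 1, and the sparse points below -2 outnumber those above 2 by 70 to 9.

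The injected and the mutated gene were read first. The sox2 probe, a SoxB1 gene, was not bright and read 5.66, 7.46, 7.20 and 5.37 in MZ_Sox2 replicates 1 to 4 and 7.39, 8.27 and 9.01 in MZ replicates 1 to 3. Only MZ_Sox2 replicate 2 overlapped the MZ samples, by a narrow margin over MZ replicate 1, and the fitted difference was -1.90 (SE 0.67). Its level was thus not raised in the samples labelled as injected. No source used here places the probe relative to the injected mRNA, so it does not check the labels. The pou5f3 probe was among the bright ones in every sample, at 14.65, 15.90, 15.68 and 15.46 in MZ_Sox2 and 14.68, 15.15 and 15.92 in MZ. These samples interleave, with a difference of -0.07 (SE 0.39), and its place relative to the m793 change is likewise unknown here.

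Among transcripts that were lower in all 4 injected samples, those with the largest moderated statistics spanned metabolism, signalling and the germ line. The gene gatm (probe A_15_P120611), whose enzyme starts creatine synthesis, read 9.04, 9.51, 10.17 and 9.25 in MZ_Sox2 and 10.63, 10.49 and 11.36 in MZ. Every injected sample lay below every uninjected one, at a mean of 9.49 ± 0.49 (SD, n = 4) against 10.82 ± 0.47 (SD, n = 3), and the fitted difference was -1.63 (SE 0.39). Its difference was alike within the dyes, at -1.52 between the Cy5 samples and -1.72 between the Cy3 samples. Other gatm probes, which were dim, gave -0.66 (SE 0.76) and -0.33 (SE 0.79). The Wnt feedback inhibitor axin2 read 11.24, 12.005, 11.69 and 11.20 against 13.39, 13.29 and 12.07. Here MZ replicate 3 stood next to the injected samples while replicates 1 and 2 lay well above them, and the difference was -1.34 (SE 0.35), or -2.10 within Cy5 and -0.44 within Cy3. The other axin2 probe, also bright, gave -0.62 (SE 0.65). The serine/threonine kinase gene pim2 read 10.90, 11.80, 13.47 and 11.46 against 14.79, 14.47 and 13.92, a difference of -2.55 (SE 0.76). MZ_Sox2 replicate 3 was the highest injected sample and MZ replicate 3 the lowest uninjected one.

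The stress-response gene gadd45ga had the largest fitted difference of this set and read 5.80, 8.59, 8.10 and 6.22 against 10.86, 10.25 and 8.75. MZ_Sox2 replicates 1 and 4 were the low samples, MZ replicate 3 was 0.16 above the highest injected one, and the difference was -3.05 (SE 1.07). The germ line transcript ca15b, for a carbonic anhydrase, read 13.50, 12.27, 13.85 and 12.89 against 14.15, 14.20 and 14.41. The 3 uninjected samples were tightly grouped (14.25 ± 0.14, SD, n = 3) above a wider injected group (13.13 ± 0.70, SD, n = 4), with a difference of -1.19 (SE 0.43). The cyclin F gene ccnf, the glycolytic regulator pfkfb4b, znhit3, the transporter gene mfsd4aa, the Ras exchange factor gene rasgef1ba and the complex III subunit gene uqcrq were among the rest of the 12, with differences from -1.23 for znhit3 to -0.64 for rasgef1ba.

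The 12 transcripts named as higher in all 4 injected samples had differences from 0.66 to 1.50, apart from gbgt1l4 at 3.62. The gene emc3, for a subunit of the membrane protein insertase of the endoplasmic reticulum, read 10.04, 10.78, 9.40 and 9.40 in MZ_Sox2 and 7.98, 8.56 and 8.82 in MZ. The lowest injected sample lay 0.57 above the highest uninjected one, and the difference was 1.50 (SE 0.38). The unconventional myosin gene myo1eb read 12.42, 12.10, 11.95 and 12.53 against 10.21, 9.90 and 11.92. Its separation from MZ replicate 3 was only 0.03, and the difference of 1.42 (SE 0.41) was 2.36 within Cy5 and 0.27 within Cy3. The circadian repressor gene per1b read 10.95, 11.47, 10.72 and 10.62 against 9.43, 9.60 and 10.29, a difference of 1.21 (SE 0.41). Again MZ replicate 3 was the nearest uninjected sample.

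The gene gbgt1l4, whose product is of a glycolipid transferase family, read 13.57, 14.08, 13.78 and 10.87 against 9.68, 9.84 and 9.93. Replicates 1 to 3 of MZ_Sox2 were high and replicate 4 lay 0.94 above the highest uninjected sample, and the difference was 3.62 (SE 1.30). The Mediator subunit gene med31 (1.35, SE 0.46), the proteasome subunit gene psmb4 (1.01, SE 0.35) and the leucine catabolism gene mccc2 (0.999, SE 0.33) followed. The serine hydrolase gene rbbp9, the spliceosome gene plrg1, the adaptor gene garem, the fatty acid transporter gene slc27a1a and fam53c had differences from 0.66 for fam53c to 0.88 for rbbp9. Other probes of psmb4 gave 0.31 and -0.08, so its value rests on its brightest probe.

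Among all non-overlapping bright genes, MZ replicate 3 was the uninjected sample nearest to the injected ones for 68 of 100 above and for 67 of 101 below.

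**Figure D2:**
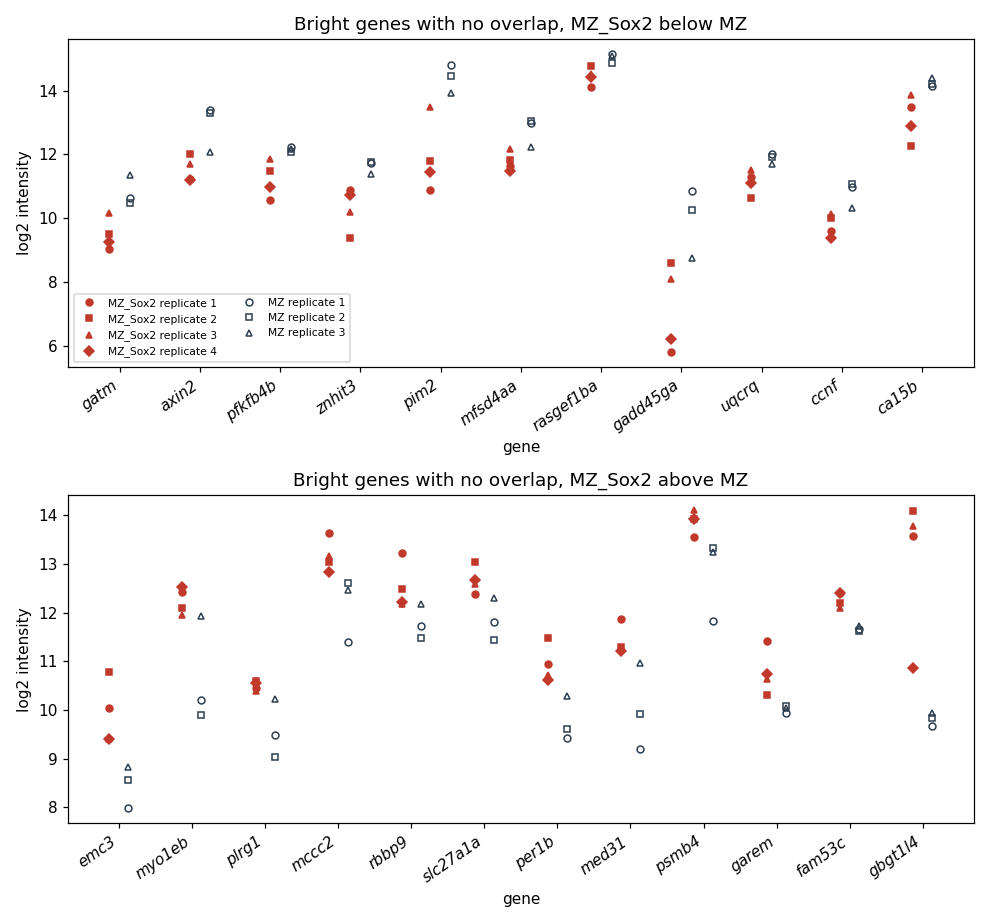
The log2 intensity of 11 of the 12 genes named as below and of the 12 named as above in MZ_Sox2, in each of the 4 injected samples (filled) and 3 uninjected samples (open), where each symbol is 1 sample. The open triangles, MZ replicate 3, lie next to the filled symbols for axin2, gadd45ga, myo1eb and rbbp9, and apart from them for gatm and emc3.

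Regulators of pluripotency and of the blastula contributed 4 of 13 bright genes to the non-overlapping set below and 0 above, where 2.03% and 2.01% of all bright genes did so. The median difference of the list was -0.37, against 0.03 over all bright genes, and 8 of the 13 were negative. Its median was 0.03, -0.34 and -0.50 against MZ replicates 1, 2 and 3. The hairy-related repressor gene her3 read 5.89, 7.71, 7.20 and 6.70 in MZ_Sox2 and 10.25, 11.44 and 8.18 in MZ, a difference of -3.62 (SE 1.72). MZ replicate 3 was 0.47 above the highest injected sample. Its relative her6 read 10.84, 12.31, 12.11 and 11.64 against 14.07, 13.70 and 13.07, a difference of -1.74 (SE 0.74), with the 3 uninjected samples clearly apart from the injected ones.

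The Krüppel-like gene klf2b, an early zygotic gene, read 8.34, 11.65, 12.36 and 11.72 against 13.43, 14.17 and 13.28, a difference of -3.37 (SE 1.40), and its other probe gave -3.65. MZ_Sox2 replicate 1 was far below the other injected samples. The SoxB1 gene sox19a showed the same outlying sample, at 9.04, 12.48, 12.55 and 12.002 against 12.86, 13.20 and 13.10, a difference of -1.86 (SE 0.93). Of 6 SoxB genes on the array 3 were bright, and their differences were -1.86 for sox19a, -2.41 for sox3 and 0.08 for sox21a. The last 2 do not meet the naming rule and are given to complete the family.

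Dorsal organizer genes, which encode BMP antagonists and transcription factors of the shield, had negative differences in 14 of 14 bright members, with a median of -1.62, where 47.7% of all bright genes were negative. Of the 14, 2 lay below without overlap, against 2.03% of all bright genes. These were foxb1a and otx2a, which also stand on the neural and head ectoderm list and are counted in both. The organizer median was -2.08 against MZ replicate 1, -2.13 against MZ replicate 2 and -0.28 against MZ replicate 3. Fewer cells of a region and less RNA per cell cannot be told apart in these whole-embryo samples. The forkhead gene foxb1a, a gene of the neural ectoderm, read 6.24, 10.39, 11.16 and 9.01 against 11.66, 11.83 and 12.38, a difference of -3.62 (SE 1.71). The head homeobox gene otx2a read 7.46, 10.40, 10.70 and 8.89 against 12.28, 11.62 and 11.98, a difference of -3.03 (SE 1.13). For both, all 3 uninjected samples were high, MZ replicate 3 included, and MZ_Sox2 replicates 1 and 4 were the low ones. Among the canonical organizer genes, picked by name after their values were known, chrd had a difference of -2.06, gsc one of -2.62 and noto one of -2.55, and all of these overlapped.

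Neural and head ectoderm genes were negative in 12 of 13, with a median of -1.35. Of them 3 lay below without overlap (foxb1a, otx2a and rx3), beside 2.03% of all bright genes. The genes foxb1a and otx2a are those already counted in the organizer list. Leaving out MZ replicate 1 or MZ replicate 2 gave a median of -0.64 each, and leaving out MZ_Sox2 replicate 1 gave -0.78. The median was -0.99, -0.78 and -0.69 against MZ replicates 1, 2 and 3. Within the Cy3 samples it was -0.19, beside -0.17 for the organizer list, and a fit that left out MZ replicates 1 and 2 and WT replicate 3 gave -0.35 for neural and -0.23 for organizer genes. The eye field gene rx3 read 9.62, 10.07, 11.17 and 6.44 against 11.68, 11.87 and 12.87, a difference of -2.43 (SE 1.1). MZ_Sox2 replicate 4 was far below the others and MZ replicate 3 was the highest of all 7. Of the hox and caudal genes 2 were bright, and the posterior gene cdx4 had a difference of -2.30 (SE 0.98) with overlapping samples, while evx1 had one of -0.20 (SE 0.26).

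Ventral homeobox and BMP pathway genes were negative in 10 of 13, with 1 below without overlap (2.03% of all bright genes) and a median of -1.31. The inhibitory Smad gene smad7 was that gene, at 5.51, 8.96, 8.50 and 8.42 against 9.19, 9.09 and 9.42, with a difference of -1.69 (SE 0.83). MZ_Sox2 replicate 1 was the outlying sample, and the other 3 lay 0.13 or more below the lowest uninjected one. Against MZ replicate 3 the list's median was -0.20, and against replicates 1 and 2 it was -1.31 and -1.30. Set against the mean of the uninjected samples, it was -2.60 for MZ_Sox2 replicate 1 and 0.36 for replicate 2. Within the Cy3 samples it was 0.15, and it was -0.66 without MZ_Sox2 replicate 1, -0.55 without MZ replicate 1 and -0.82 without MZ replicate 2.

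Signalling pathways of the margin differed in the same way between the uninjected replicates. Nodal pathway and mesendoderm genes were negative in 9 of 14, with a median of -0.63, FGF pathway genes in 10 of 11, with a median of -0.94, and Wnt pathway genes in 13 of 19, with a median of -0.75. Against MZ replicate 3 alone these medians were -0.19, -0.23 and 0.19. Without MZ_Sox2 replicate 1 they were -0.20, -0.75 and -0.40, and without MZ replicate 1 they were -0.34, -0.51 and -0.34. The mesodermal T-box gene tbxta read 7.60, 10.21, 10.46 and 9.98 against 13.41, 13.17 and 10.96, a difference of -3.13 (SE 1.37), with MZ replicate 3 nearer to the injected samples than to its own group.

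The Nodal antagonist gene lft2 read 10.54, 11.04, 11.24 and 10.68 against 13.40, 13.42 and 11.48, a difference of -1.78 (SE 0.65). The MAP kinase phosphatase gene dusp6, a feedback inhibitor of FGF signalling, read 7.91, 11.78, 10.92 and 11.53 against 12.54, 12.84 and 11.87, a difference of -2.33 (SE 1.2). MZ replicate 3 lay 0.23 above the highest injected sample for lft2 and 0.09 above it for dusp6. The non-canonical Wnt ligand gene wnt11f2 read 10.45, 12.28, 12.76 and 11.46 against 13.76, 13.80 and 13.02, a difference of -1.88 (SE 0.71). It and axin2 were the 2 Wnt genes without overlap, of 19. Of the Nodal genes 2 of 14, and of the FGF genes 1 of 11, lay below without overlap. Of all bright genes 2.03% did so.

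**Figure D3:**
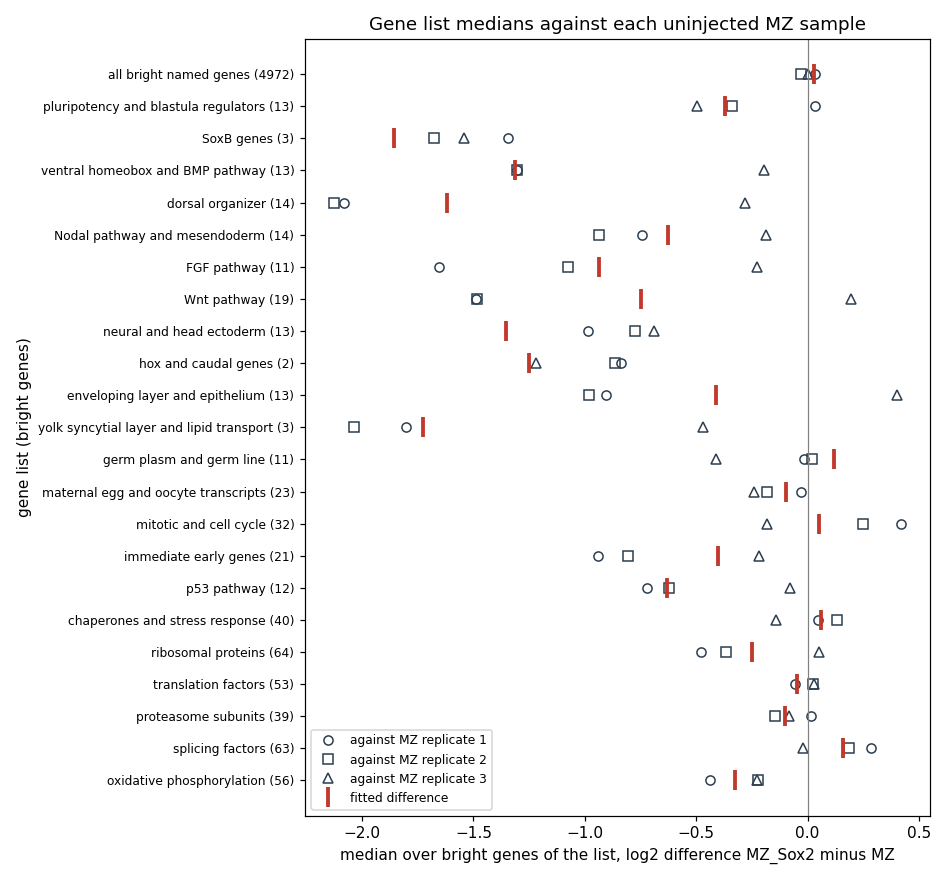
For each gene list, with its number of bright genes, the horizontal axis gives the median log2 difference of MZ_Sox2 against each single uninjected sample (open symbols) and the median fitted difference (red bar). Dorsal organizer genes lie at -2.08 and -2.13 against MZ replicates 1 and 2 and at -0.28 against replicate 3, while all bright named genes lie near 0 against each.

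Epithelial and extraembryonic transcripts differed between samples of the same label. Enveloping layer and epithelium genes were negative in 13 of 13, with 0 that did not overlap in either direction and a median of -0.41. With MZ_Sox2 replicate 4 as deposited, 10 of the 13 were negative, and with each sample centred on its median, 12 were. The median was -0.90 and -0.98 against MZ replicates 1 and 2 and 0.40 against MZ replicate 3. Within the Cy3 samples it was 0.62, and without MZ_Sox2 replicate 1 it was -0.13. The keratin gene krt4 read 6.20, 12.58, 6.98 and 11.97 in MZ_Sox2 and 12.17, 12.50 and 7.66 in MZ, so 2 injected samples and 1 uninjected one were low and the rest high. Its fitted difference of -1.64 (SE 1.89) was -6.14 within Cy5 and 2.85 within Cy3. The keratin gene krt92 (-2.02, SE 1.43, and 0.88 within Cy3) and the epidermal regulator gene grhl3 (-1.72, SE 0.74) were likewise low in MZ_Sox2 replicate 1.

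The apolipoprotein gene apoeb, abundant in the yolk syncytial layer, read 9.96, 15.28, 12.69 and 13.20 against 14.59, 14.82 and 13.30. MZ_Sox2 replicates 1 and 2 were the lowest and the highest of all 7 samples, and the difference was -2.35 (SE 1.93), or 0.42 within Cy3. The yolk syncytial homeobox gene mxtx1 had a difference of -1.73 (SE 1.25), or 0.18 within Cy3, and all 3 bright genes of that layer were negative. The summed intensity of the 8 enveloping layer markers on the array, 5 of them bright, ran from 972 to 43922 in MZ_Sox2 and from 1568 to 16149 in MZ. For the 4 yolk syncytial markers, 2 of them bright, it ran from 2941 to 63277 and from 14213 to 45131. The genes cldne, cyt1 and krt18b of the first set and gata6 and slc26a1 of the second were dim. Both sums were lowest in MZ_Sox2 replicate 1 and, among uninjected samples, in MZ replicate 3, and the part of these cell layers in the gene differences above was not tested.

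**Figure D4:**
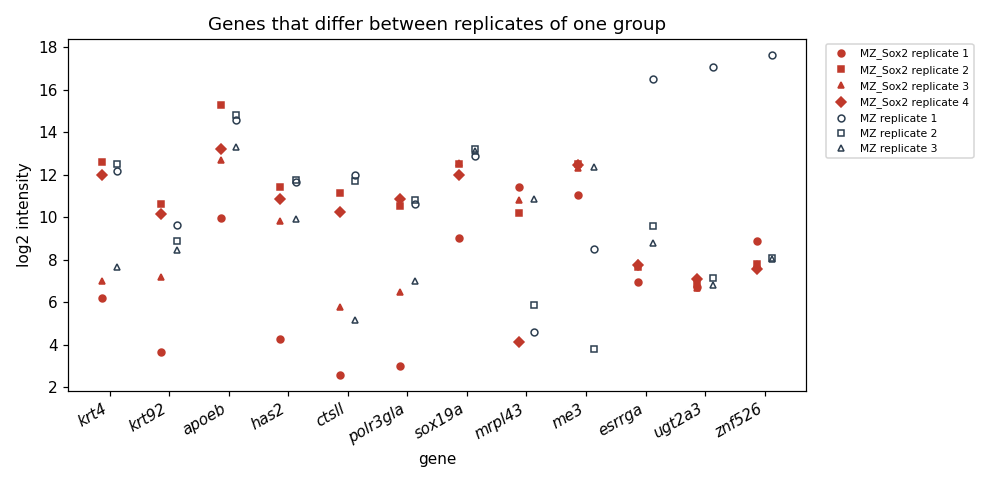
The log2 intensity of 12 genes in each of the 4 MZ_Sox2 samples (filled) and 3 MZ samples (open), picked after their values were seen to show samples of 1 label apart from each other. MZ_Sox2 replicate 1 is the lowest sample for krt4, krt92, apoeb, has2, ctsll, polr3gla and sox19a, MZ replicate 3 is low with it for krt4 and ctsll, and MZ replicate 1 alone is high for esrrga, ugt2a3 and znf526.

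The bright genes with the largest spread inside a group repeated these patterns. An SD above 2 between replicates was found for 57 bright genes in MZ_Sox2 and 54 in MZ. In MZ_Sox2 the sample farthest from the group median was replicate 1 for 33 of the 57, and in MZ the sample farthest from the group mean was replicate 3 for 34 of the 54. The hyaluronan synthase gene has2 read 4.27, 11.40, 9.80 and 10.85 against 11.67, 11.75 and 9.89. The cathepsin gene ctsll read 2.59, 11.12, 5.76 and 10.26 against 11.99, 11.70 and 5.17, the RNA polymerase III subunit gene polr3gla had the same 3 low samples, and 1 sample of each was at the array's background. The mitochondrial ribosomal protein gene mrpl43 ran otherwise, at 11.42, 10.17, 10.83 and 4.12 against 4.60, 5.87 and 10.87. Its low samples were MZ_Sox2 replicate 4 and MZ replicates 1 and 2, and MZ replicate 1 lay below the dark feature of its own array channel. The malic enzyme gene me3 was low only in MZ replicates 1 and 2, at 8.49 and 3.77, against 11.05 to 12.49 in the other 5 samples.

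Transcripts deposited by the mother showed no common direction in the fit of all 16 samples. Germ plasm and germ line genes had positive differences in 6 of 11 and a median of 0.12, with ca15b the only one without overlap. Of all bright genes 2.03% lay below and 2.01% above without overlap. The germ line median was -0.02, 0.02 and -0.41 against MZ replicates 1, 2 and 3. It was 0.57 within Cy5, -0.53 within Cy3, and -0.38 without MZ replicates 1 and 2 and WT replicate 3. Maternal egg and oocyte transcripts were negative in 13 of 23 with a median of -0.10. The egg coat gene zp3a.1 was the only one without overlap, at 9.20, 9.18, 9.60 and 9.19 against 8.03, 8.64 and 9.03, a difference of 0.62 (SE 0.27). Summed germ line markers ran from 27105 to 61981 in MZ_Sox2 and from 38793 to 68675 in MZ, and summed egg markers from 25441 to 69153 and from 36586 to 48105. Markers of tissues that form later were bright, by the mean over the 7 samples, in 0 of the 29 genes on the array. Their summed intensity ran from 510 to 1130 in MZ_Sox2 and from 636 to 7926 in MZ. Single samples read high for some of them. The gene nppa read 12.75 in MZ replicate 2 and at most 4.78 in the others, and tnnt3b 10.05 in MZ replicate 1 and at most 5.14 in the others. For elavl3 MZ_Sox2 replicate 2 read 8.37, and MZ replicates 1 and 2 read 8.23 and 8.73.

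Cell cycle, chaperone, translation and proteasome genes had median differences between -0.10 and 0.06, and splicing factors were positive in 43 of 63. Against MZ replicates 1, 2 and 3 the cell cycle median was 0.42, 0.25 and -0.18, and the splicing median 0.29, 0.18 and -0.02. Within the Cy3 samples these medians were -0.22 and -0.01. A fit without MZ replicates 1 and 2 and WT replicate 3 gave -0.28 for cell cycle and -0.02 for splicing genes. Mitotic and cell cycle genes had a median of 0.05 over 32 genes with 0 that did not overlap, and the replication licensing genes cdt1 and orc1 had differences of 0.69 (SE 0.38) and 0.71 (SE 0.37) with overlapping samples. Chaperones had a median of 0.06 over 40 genes, with the chaperonin subunit gene tcp1 (-0.29, SE 0.24) the only one without overlap, translation factors -0.05 over 53, proteasome subunits -0.10 over 39 and splicing factors 0.16 over 63. Among these, the elongation factor gene eef1g (-0.52, SE 0.23), the oocyte cap-binding gene eif4e1b (-0.38, SE 0.20), the proteasome genes psmd4a (-0.72, SE 0.39) and psmd2 (-0.16, SE 0.18), the hnRNP gene hnrnpabb (0.53, SE 0.23) and psmb4 did not overlap. For eef1g the other probe gave 0.17. Of all bright genes 2.01% lay above and 2.03% below without overlap.

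Ribosomal protein genes were negative in 49 of 64 with a median of -0.25, which was -0.48 and -0.37 against MZ replicates 1 and 2 and 0.05 against MZ replicate 3. Within the Cy3 samples it was 0.17. Their 2 leading genes, rpl36 (-1.55, SE 0.72) and rps26 (-0.62, SE 0.31), overlapped. Oxidative phosphorylation genes were negative in 44 of 56, with a median of -0.33 and with 6 below and 0 above without overlap, where 2.03% and 2.01% of all bright genes did so. With MZ_Sox2 replicate 4 as deposited the median was -0.15 and 39 of the 56 were negative, and without MZ replicate 1 it was -0.17. Their median was -0.44, -0.22 and -0.23 against MZ replicates 1, 2 and 3, so it had the same sign against each. The ATP synthase subunit gene atp5f1d read 13.21, 12.95, 13.34 and 13.69 against 13.97, 14.28 and 13.72, a difference of -0.68 (SE 0.36), and lay 0.03 apart at the closest samples. The complex I subunit gene ndufa2 had a difference of -0.61 (SE 0.32) and uqcrq one of -0.67 (SE 0.24). Other probes of uqcrq, all bright, gave -0.54, -0.25 and -0.30.

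Immediate early genes, which cycloheximide itself is known to superinduce, were negative in 13 of 21 with a median of -0.40 and 0 without overlap, and gadd45ba and gadd45bb had differences of -2.39 (SE 1.2) and -1.12 (SE 0.45). Within Cy3 the difference of gadd45ba was 0.31, and without MZ_Sox2 replicate 1 the median of the list was -0.18. Genes of the p53 pathway were negative in 8 of 12 with a median of -0.63, which was -0.72 and -0.62 against MZ replicates 1 and 2 and -0.08 against MZ replicate 3. Within the Cy3 samples it was -0.07. The pro-apoptotic gene baxa was the only one without overlap and lay on the other side, at 12.59, 12.70, 12.83 and 13.13 against 12.13, 12.38 and 12.32, a difference of 0.45 (SE 0.21). Of all bright genes 2.01% lay above without overlap.

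The steadiest of the 500 brightest genes were arhgdia, atp5fa1, eef1b2, serp1, tab3 and wdr20a. The elongation factor gene eef1b2 read 15.04, 15.17, 14.94 and 14.85 in MZ_Sox2 and 15.00, 15.01 and 15.00 in MZ. The fitted differences of the 6 lay between -0.24 for atp5fa1 and 0.07 for eef1b2 and serp1.

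Whether Sox2 mRNA acted differently without Pou5f1 was tested as the difference between its effect in MZ and in wild type embryos, where WT_Sox2 (3 wild type samples injected with 50 pg Sox2 mRNA) was set against uninjected WT (3 samples). Limma called 0 of 21495 probes (0%) for this difference of effects, with a smallest adjusted p of 0.262. Without adjustment 1954 (9.09%) had a p under 0.05. Without WT_Sox2 replicate 3 the count of calls was 22, and 0 of these probes were bright. Without MZ replicate 1 it was 10, and of these only lman2lb was a bright named gene. Its effects differed by 8.73 (SE 1.25, adjusted p = 0.0454, limma without MZ replicate 1), and it was named after its values were seen. The gene gatm had a difference of -1.63 in MZ and 0.85 (SE 0.40) in WT, so that the effects differed by -2.48 (SE 0.56, limma adjusted p = 0.333). It read 9.45, 9.24 and 10.82 in the uninjected WT samples and 10.64, 10.96 and 10.46 in WT_Sox2. WT replicate 3 thus lay within the range of the injected WT samples. For gbgt1l4 the values were 3.62 in MZ and -2.85 (SE 1.33) in WT, so that the effects differed by 6.47 (SE 1.84, limma adjusted p = 0.385). In the uninjected WT samples gbgt1l4 read 13.94, 14.03 and 10.12, and in WT_Sox2 10.22, 10.27 and 9.03, so WT replicate 3 overlapped the injected WT samples. Of the 12 genes named as lower in MZ_Sox2, 9 were also negative in WT. Among them were axin2 at -0.72 and ccnf at -1.01 (-0.46 and -0.66 without WT_Sox2 replicate 3). The negative values of uqcrq (-0.05), pim2 (-0.12), gadd45ga (-0.16), pfkfb4b (-0.18) and mfsd4aa (-0.23) were smaller in size than their SE. Without WT_Sox2 replicate 3, pim2 and gadd45ga turned positive (0.32 and 0.35). In the uninjected WT samples gadd45ga read 5.85, 5.93 and 10.12, and in WT_Sox2 7.32, 8.23 and 5.87. For pim2 the values were 12.50, 12.41 and 14.41 against 13.24, 13.55 and 12.19, and for mfsd4aa 11.81, 12.07 and 12.82 against 12.14, 11.89 and 11.99. WT replicate 3 was the highest WT sample for each, and no fit left out that sample alone. For axin2 and ccnf all WT_Sox2 samples lay below all WT samples. Of the 12 named as higher, 7 were also positive in WT, with emc3, mccc2 and fam53c close to 0. Without WT_Sox2 replicate 3 emc3 and fam53c turned negative (-0.04 and -0.14) and garem positive (0.07). The median WT difference over all bright named genes was 0.05. The eye field gene rx3 and her6 were also negative in WT, at -3.33 (SE 1.13) and -1.69 (SE 0.76). In the uninjected WT samples her6 read 11.91, 11.61 and 14.07, and in WT_Sox2 10.15, 10.93 and 11.43, so WT replicate 3 stood far above its group.

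Across the bright genes the Sox2 differences in MZ and in WT correlated at 0.02 (Pearson) and 0.05 (Spearman). This describes 4972 genes, which are not independent, in comparisons that share no sample but share slides and arrays. MZ replicates 1, 2 and 3 were read on the same arrays as WT replicates 2, 3 and 1, in the other dye channel. Oxidative phosphorylation genes had a median of -0.33 in MZ and 0.42 in WT, and proteasome genes -0.10 and 0.40. Dorsal organizer genes had medians of -1.62 and -0.60, and neural and head ectoderm genes -1.35 and -0.50. Without WT_Sox2 replicate 3 the WT medians were -0.51 and -0.16. In the uninjected WT samples foxb1a read 6.11, 6.12 and 11.57, and in WT_Sox2 9.36, 12.36 and 4.66. For otx2a the values were 7.49, 7.17 and 11.71 against 9.05, 11.02 and 7.98. In both groups replicate 3 stood apart for these genes. For rx3 all WT_Sox2 samples lay below all WT samples. The part of WT replicate 3 in the WT medians was not tested.

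**Figure D5:**
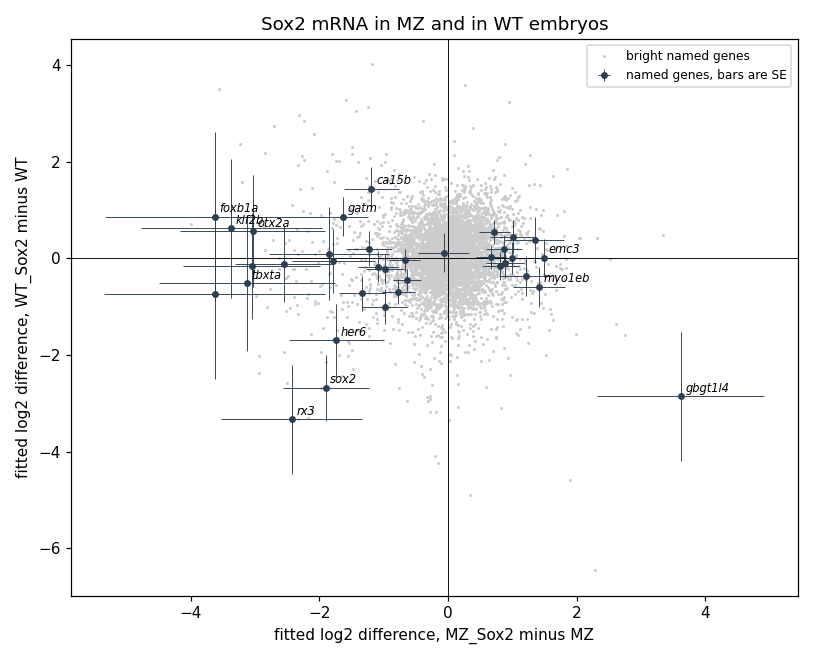
Each grey point is a bright named gene, with the fitted log2 difference of Sox2 mRNA in MZ embryos on the horizontal axis and in WT embryos on the vertical axis; dark points are named genes with bars of 1 SE in each direction. The cloud centres on 0 with no visible slope (Spearman 0.05), rx3, her6 and sox2 lie low on both axes, and gbgt1l4 lies at 3.62 and -2.85.

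Pou5f1 mRNA (100 pg) in MZ embryos gave a further point of reference, in MZ_Pou5f1 (3 samples). Limma called 0 of 21495 probes (0%) between MZ_Sox2 and MZ_Pou5f1, with 456 (2.12%) at an unadjusted p under 0.05 and a smallest adjusted p of 0.9997. Without MZ_Pou5f1 replicate 3 the count was again 0, with 501 at an unadjusted p under 0.05. Because the comparisons of both injections with MZ share the 3 uninjected samples, their values are given side by side only. Against those samples, foxb1a had a difference of -3.62 with Sox2 and -6.91 with Pou5f1, klf2b -3.37 and -5.91, tbxta -3.13 and -3.87, and axin2 -1.34 and -1.31. The sox2 probe had differences of -1.90 and -2.61, and ca15b -1.19 and 0.01 (0.42 without MZ_Pou5f1 replicate 3). In MZ_Pou5f1 gbgt1l4 read 9.77, 8.82 and 14.33, so that replicate 3 alone was high, and its difference from MZ was 1.15 with that sample and -0.45 without it. Dorsal organizer genes had medians of -1.62 and -2.01, and oxidative phosphorylation genes -0.33 and -0.29.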

How the data were processed

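The submitters' processing notes name Agilent Feature Extraction for reading the arrays, without a version. The deposited values are linear probe intensity values. According to the design text per the labels, the 2 dye channels were split by the authors, quantile normalised and treated as separate samples, and how background was removed is not stated there. Sorted values were identical in 14 of 16 columns (median intensity 55.07). MZ_Sox2 replicate 4 and MZ_Pou5f1 replicate 2 had medians of 83.38 and 52.14, and were mapped by rank onto that distribution before log2 was taken. Of 21555 features 60 controls were left out. Names came from the platform annotation, in which 12887 probes had 1 symbol, 0 several and 8608 none, and the gene identifier of 12807 was in the RefSeq table, used for names only. There is no read depth on an array. Precision differed between probes in the same fit, with SEs of the named genes from 0.18 for psmd2 to 2.40 for ctsll.

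One limma fit held all 16 samples, with 5 group means, dye as covariate and array as random block (consensus correlation 0.04286, 10 residual and 2.309 prior degrees of freedom). Two-sided p-values were adjusted by Benjamini-Hochberg over 21495 probes, and a probe was called at 0.05. Computations used R 4.3.3, limma 3.58.1, Python 3.11.15 and matplotlib 3.10.9.

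The samples, genes and 23 gene lists were chosen with earlier results of these data known. No list was tested as a set: lists are described by counts and medians. Named are pou5f3 and sox2, and in each direction the 12 bright non-overlapping genes with the largest moderated statistic. Each list gave up to 3 non-overlapping genes, or the 2 with the largest statistic. Also named are 6 of the 500 brightest genes with the smallest SD over the 7 samples, and in each group the 5 with the largest SD. Clone names were passed over. Of 34 other bright probes of the named genes, 30 had the sign of the brightest one. Alternatives changed the scaling, dye, block, samples, dim probes, empirical Bayes prior or threshold, or left out 1 replicate. A fit with the spike-in pattern in place of dye, and fits without MZ replicates 1 and 2 and WT replicate 3, without MZ_Pou5f1 replicate 3 and without WT_Sox2 replicate 3, were added after the data were seen. Of the 12 genes named as lower in MZ_Sox2, 1 is not reported here.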

Additional observations from a re-analysis of the deposited data

Results flagged for a closer look

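In 9 of the 75 named genes 1 of the 4 MZ_Sox2 samples stood apart from the other 3, by a gap beyond Dixon's 95% critical value for 4 samples. Chance gives such a gap in about 1 in 20 groups that were not chosen by their values. These genes were chosen partly by non-overlap and by their spread, so that share is no yardstick for the count. The sample was MZ_Sox2 replicate 1 in 6 of the 9. It was low for sox19a (9.04, the next sample at 12.002), tbxta (7.60, the next at 9.98), smad7 (5.51, the next at 8.42), me3 (11.05, the next at 12.30) and psmd4a (11.81, the next at 12.30), and high for med31 (11.86, the next at 11.29). MZ_Sox2 replicate 4 was low for gbgt1l4 (10.87, the next at 13.57) and mrpl43 (4.12, the next at 10.17). MZ_Sox2 replicate 3 was high for zp3a.1 (9.60, the next at 9.20). MZ_Sox2 replicate 1 was the only Cy5 sample of its group and lay on another slide than replicates 2 to 4, and the part of dye and slide in these gaps was not tested.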

How the results depend on the processing

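Limma's count for MZ_Sox2 against MZ, 0, was also 0 with 10 of 12 fits that changed the scaling, dye, block, samples or probes, and at a threshold of 0.1. It became 1 with a trended and robust prior (an unnamed dim probe) and 161 without MZ replicates 1 and 2 and WT replicate 3, where 158 of the calls were lower in MZ_Sox2, 1 was a bright named gene and the lone MZ sample is assumed to vary like the other groups. Leaving out 1 sample gave 0 to 8. The difference of effects, 0, became 1 without the 2 columns of another distribution (an unnamed bright probe), 103 without those 3 samples and 0 to 22 with 1 sample left out, 22 being without WT_Sox2 replicate 3. MZ_Sox2 against MZ_Pou5f1 stayed at 0 in every fit run. The replicate block, with equal numbers taken as pairs, gave 0 for all 3 comparisons. Deviations from the group mean correlated at -0.07, 0.09 and 0.49 between MZ_Sox2 and MZ replicates 1, 2 and 3. For 2 of the 3 MZ samples the best match among MZ_Sox2 replicates 1 to 3 had the same number. Whether equal numbers mark true pairs was not tested. The 100 genes above and 101 below became 204 and 20 with the columns as deposited, which moved the median of bright genes to 0.21, 221 and 213 without the 2 columns, 169 and 53 with median centring, and 587 and 494 without the 3 samples. With 1 sample left out they were 128 to 911 in each direction. Leaving out samples can only keep or raise these counts, so a rise does not by itself mark those samples.

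Within the Cy3 samples, with MZ replicate 3 the only uninjected one, 18 of the 75 named genes turned sign, and within Cy5 2. In the refitted alternatives 20 values of the named differences did. Without the 3 samples these were apoeb 0.045, cdt1 -0.079, ctsll 2.60, evx1 0.31, krt4 2.13, krt92 0.074, me3 -0.20, mrpl43 -2.32, polr3gla 1.08 and rps26 0.036. The others were ctsll (-6.04 to 0.32), polr3gla (-4.55 to 0.21), evx1 (-0.55 to 0.033) and pou5f3 (-0.17 to 0.16) with 1 sample left out, pou5f3 with the columns as deposited (0.053), no dye (0.17) or the spike-in pattern (0.13), and psmd2 with the columns as deposited (0.0051). The causes were not tested. Over all lists and settings, 68 medians moved beyond the spread between samples and 482 did not. Array background limits values near the dark feature, most in MZ replicate 1.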

Other observations

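Of 1130 bright probes without a gene name, 20 lay above (1.77%) and 16 below (1.42%) without overlap. The one with the largest moderated statistic, A_15_P114701, read 9.49, 9.56, 10.11 and 9.28 in MZ_Sox2 and 10.46, 10.57 and 11.39 in MZ, a difference of -1.46 (SE 0.38).

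In MZ replicate 1 alone, the nuclear receptor gene esrrga read 16.50, the glucuronosyltransferase gene ugt2a3 17.08 and the zinc finger gene znf526 17.64. The other 6 samples lay between 6.96 and 9.60 for esrrga, between 6.67 and 7.13 for ugt2a3 and between 7.54 and 8.89 for znf526. The second esrrga probe, which was dim, had a difference of -0.24.

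MZ replicate 3 lay within the range of the 4 MZ_Sox2 samples for 78.3% of bright named genes, MZ replicate 1 for 48.4% and MZ replicate 2 for 52.6%. WT replicate 3 and MZ replicate 3 correlated at 0.823 with each other (Spearman, over bright probes).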
